A study of Homo sapiens with 3 samples.

Results

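Homologous recombination copies lost sequence from the sister chromatid to mend a broken chromosome, and the Fanconi anemia pathway uses the same machinery to release DNA strands that are crosslinked. In outline, broken ends are resected, the exposed strand invades the intact copy with the help of BRCA1 and BRCA2, and helicases and nucleases then separate the joined molecules. At a crosslink the Fanconi core complex marks FANCD2 and FANCI with ubiquitin, and ATM, ATR and their partner kinases halt the cell cycle meanwhile. Some of these genes are known to be transcribed mainly in S and G2 phase, and inherited defects in many of the genes raise the risk of cancer.

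The 39 genes described here were chosen by name, as rows of the deposited expression table that carry the symbol of a named recombination, Fanconi or checkpoint gene. All 39 were found among the 35851 rows. All had a mean of at least 1 RPKM (a read count divided by exonic length and by library size) and so were among the 13274 genes tested. The lowest means were those of FANCF and ATM. In siMYBL2-1 the levels of FANCF, ATM and RMI2 were below 1 RPKM, and that of BRCA2 was 0.9995 RPKM.

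The libraries came from 5637, a human bladder cancer cell line labelled WT, grown in RPMI 1640 with fetal bovine serum and transfected with siRNA by Lipofectamine 3000. One group was 1 library of cells given the control siRNA, siNC. The other was 2 libraries of cells given siRNA against MYBL2, named siMYBL2-1 and siMYBL2-2, and the labels leave unsaid if the numbers denote distinct siRNAs or repeats. MYBL2, a MYB family transcription factor, works with the MuvB complex, and the study set out to find the genes downstream of it in bladder cancer. No time after transfection is given in the labels. Nothing there shows that the samples were separate cultures, so a p-value measures sample spread alone, and that spread may be technical.

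Where 3 levels follow a gene below, they stand for siNC, siMYBL2-1 and siMYBL2-2 in that order. The libraries held 40259436, 41818861 and 46177658 assigned reads, so depth was similar. The targeted gene, MYBL2, was at 211, 46.0 and 56.3 RPKM, below siNC in both siMYBL2 libraries (limma: log2 change -2.03, SE 0.30, adjusted p 0.153). All 11 urothelial and epithelial markers checked were at 1 RPKM or more in each library, with summed levels of 2510 to 3149 RPKM, while 5 fibroblast, 5 immune and 4 endothelial markers summed to at most 2.04, 0.221 and 0.277 RPKM. Across the genes tested, siMYBL2-2 was closer to siNC (Pearson's r of log2(RPKM + 1) 0.981) than siMYBL2-1 was (0.959). Between the siMYBL2 libraries r was 0.968, so siMYBL2-2 was closer to siNC than to siMYBL2-1.

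The recombination and Fanconi genes were mostly lower in siMYBL2-1 than in siNC, and in siMYBL2-2 they lay on both sides of it. In siMYBL2-1, 34 of the 39 genes were below siNC, against 54.7% of all genes tested, and their median log2 ratio was -0.34, against -0.04 over all genes tested. In siMYBL2-2, 18 of 39 were below siNC, against 52.0% of all genes tested, with a median log2 ratio of 0.04, against -0.01. These ratios are differences in log2(RPKM + 1). The sum of the 39 levels was 351 RPKM in siNC, 259 in siMYBL2-1 and 361 in siMYBL2-2. The libraries with reduced MYBL2 thus lay on either side of the control in the summed level.

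**Figure D1:**
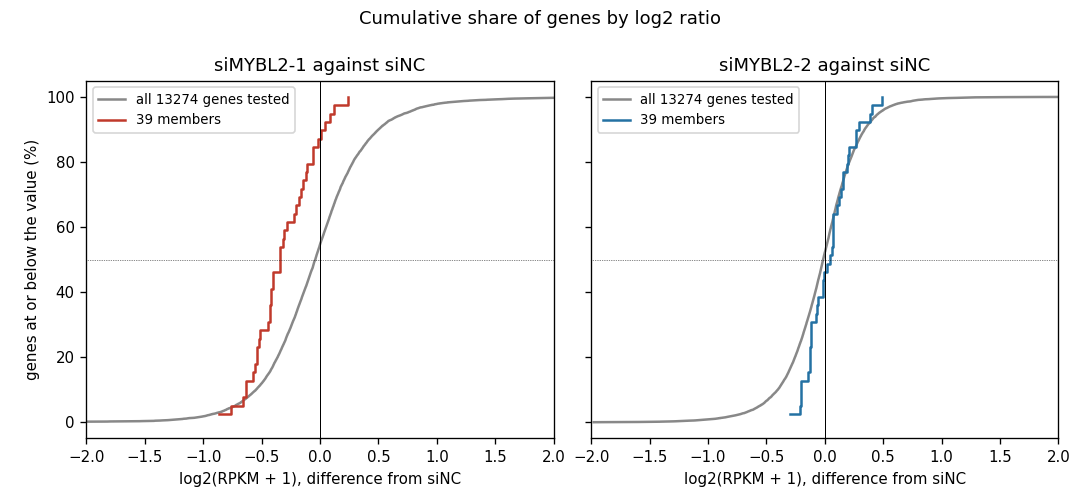
Cumulative share of genes (y axis, percent) at or below each log2 ratio to siNC (x axis, difference in log2(RPKM + 1)), for the 39 members (coloured steps) and all 13274 genes tested (grey), in siMYBL2-1 (left) and siMYBL2-2 (right). The member curve lies to the left of the grey curve over most of its range in siMYBL2-1 (median -0.34), and crosses near 0 in siMYBL2-2 (median 0.04).

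By limma, 0 of the 39 genes passed an adjusted p of 0.05 for siMYBL2 against siNC, and over all genes tested 0.0% passed on the lower and 0.00753% on the higher side (0 and 1 of 13274 genes). No member had an unadjusted limma p under 0.05, against 4.71% of all genes tested, and the smallest was 0.182, for FANCE. By limma-voom on the recovered reads 0 members passed as well, and 0 had an unadjusted p under 0.05. The spread in this design comes from the siMYBL2 pair alone, and an exact permutation test of 2 libraries against 1 could not go below 0.333. What follows therefore describes 3 libraries. Ranges after a ratio of 2 libraries are 95% intervals from an exact binomial calculation on their reads, and cover counting error only.

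Both siMYBL2 libraries were below siNC for 14 of the 39 genes (all genes tested, 36.4%), both were above it for 1 (29.7%), and 24 lay on opposite sides of it (33.9%). A fold of at least 1.5 below siNC was reached by 13 genes in siMYBL2-1 (all genes tested, 15.0%) and by 0 in siMYBL2-2 (8.63%). At least 1.5-fold above siNC were 0 genes in siMYBL2-1 (11.2%) and 1 in siMYBL2-2 (4.91%), PALB2. By counting error alone, the ratio to siNC was below 1 for 30 genes and above 1 for 2 in siMYBL2-1, and below 1 for 10 and above 1 for 16 in siMYBL2-2. For 14 genes the interval lay below 1 in siMYBL2-1 and above 1 in siMYBL2-2, and for 6 it lay below 1 in both. These interval counts were not made over all genes tested, so they cannot be set against a share there. The siMYBL2 libraries can also be compared without the control: 33 of the 39 genes were lower in siMYBL2-1 than in siMYBL2-2, against 52.4% of all genes tested, with a median log2 ratio of -0.36 against -0.02. In a bulk sample, fewer cells in the phases that express such genes and less RNA per cell cannot be told apart.

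Levels per length spanned a wide range. CLSPN was the most abundant member, at 61.8 RPKM in siNC, followed by UBE2T, FANCI, MND1 and RBBP8 at 29.5, 22.7, 21.2 and 20.9 RPKM. The median member was at 5.36 RPKM in siNC, and the least abundant were FANCF, BRCA2, ATM and FANCM, at 1.22, 1.303, 1.32 and 1.38 RPKM. Reads per member and library ran from 108 (RMI2 in siMYBL2-1) to 13473 (CLSPN in siNC). Across the 39 members, Spearman's rho of the log2 ratio with exonic length was 0.43 in siMYBL2-1 and 0.21 in siMYBL2-2, so that the shorter genes tended to lie lower. Over all genes tested the same rho was 0.00 and 0.04. With the siNC level in place of length, rho was -0.39 and 0.09 across the members, and -0.08 and 0.01 over all genes tested. These ratios are of log2(RPKM + 1), which understates changes of low genes. All points of a rho share the same libraries, and the parts of length and of level in the members' ratios were not tested.

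**Figure D2:**
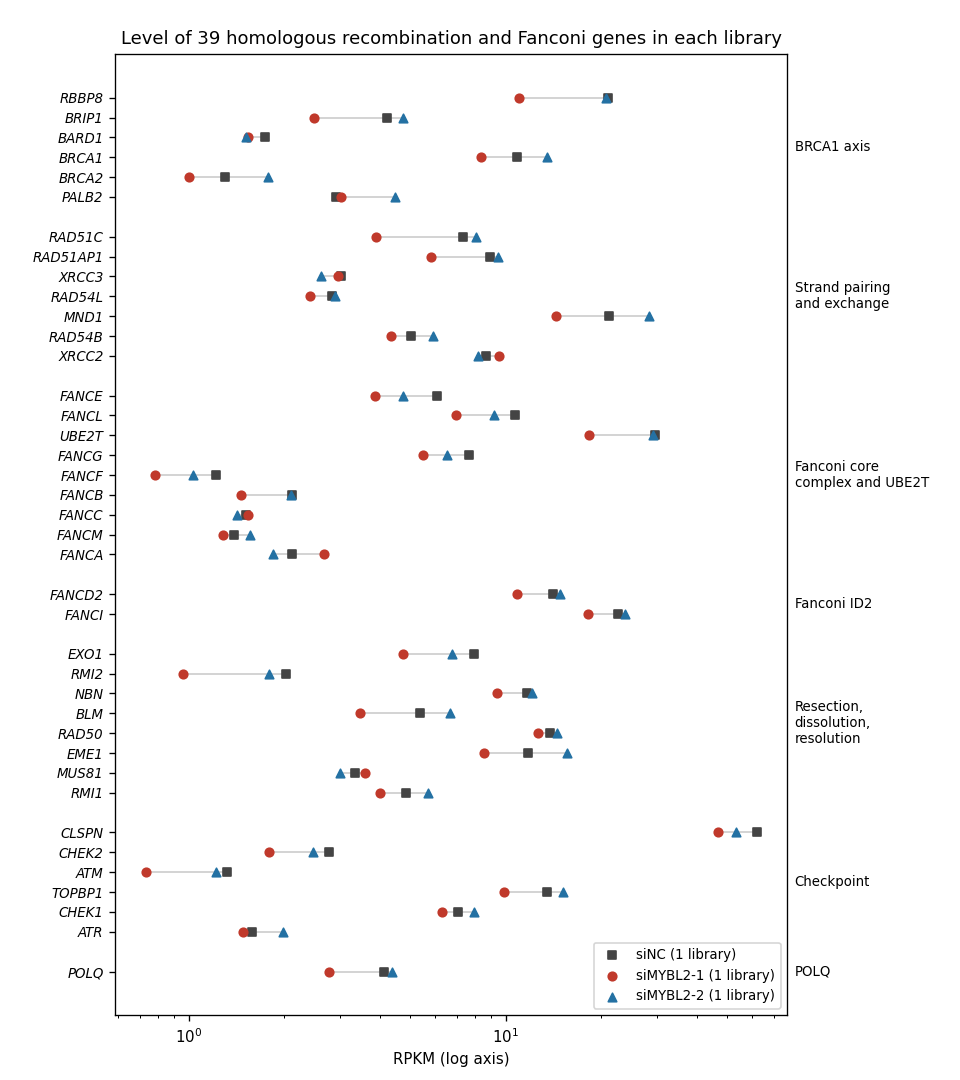
Level of each of the 39 genes (rows, by role) in RPKM on a log axis, with 1 symbol per library and a grey line over their range. The siMYBL2-1 symbol is the lowest of the 3 for most genes, and CLSPN is the most abundant, at 46.6 to 61.8 RPKM.

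MYBL2 with MuvB is known to act at the CHR element of late cell cycle promoters, and E2F factors at their own sites in promoters of S phase genes, so the promoters of the members are of interest here. RefSeq promoter windows (GRCh38.p14) were found for 35 of the 39 genes, and the 250 bases before the start site nearest to the 5′ end of each deposited gene row were searched on both strands. The CHR (TTTGAA or TTCGAA) was present in 5 of 35 windows, UBE2T, ATM, BRIP1, POLQ and FANCC, or 14.3%, against 10.97% of 14264 windows of that length. The E2F site (TTTNNCGC) was present in 4, CHEK2, FANCC, RMI1 and FANCA, or 11.4%, against 7.89%. The CCAAT box (CCAAT) was present in 15 of 35 (42.9% against 34.5%), and the MYB site (NAACNG) in 25 (71.4% against 68.0%). Over the 8074 windows of genes tested, the shares in the same order were 9.475%, 9.76%, 35.77% and 67.75%. Matches may overlap and were counted per motif. A match is a description of the letters, not of binding, and windows without one say nothing of a factor.

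The windows below show the member with the lowest mean ratio on the log2(RPKM + 1) scale, though not with a pseudocount of 0.1 or by limma-voom (RBBP8), a Fanconi gene of the lower group that has both a CHR and CCAAT boxes (UBE2T), the member with the lowest ratio of siMYBL2-1 to siMYBL2-2 (RAD51C), the most abundant member (CLSPN), and, as a contrast, ATR, which had the second highest mean ratio (in the highest, PALB2, under 100 bases lie outside annotated exons). Each runs 5′ to 3′ on the strand of the gene and ends at or before the last base upstream of the start site, with annotated exon bases left out. Capitals mark CHR, E2F and CCAAT matches on either strand.
RBBP8: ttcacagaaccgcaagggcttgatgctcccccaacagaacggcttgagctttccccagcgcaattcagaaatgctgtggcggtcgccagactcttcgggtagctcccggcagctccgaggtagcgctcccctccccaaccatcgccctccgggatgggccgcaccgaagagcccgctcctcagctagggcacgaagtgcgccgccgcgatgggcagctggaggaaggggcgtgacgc
UBE2T: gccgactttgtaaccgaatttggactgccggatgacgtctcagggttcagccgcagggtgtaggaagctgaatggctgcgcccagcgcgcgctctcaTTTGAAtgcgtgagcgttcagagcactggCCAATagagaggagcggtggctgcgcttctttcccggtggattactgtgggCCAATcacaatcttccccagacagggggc
RAD51C: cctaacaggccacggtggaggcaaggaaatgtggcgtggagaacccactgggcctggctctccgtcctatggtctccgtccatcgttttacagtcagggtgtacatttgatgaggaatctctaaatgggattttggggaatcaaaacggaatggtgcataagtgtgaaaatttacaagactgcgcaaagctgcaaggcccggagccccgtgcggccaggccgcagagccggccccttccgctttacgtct
CLSPN: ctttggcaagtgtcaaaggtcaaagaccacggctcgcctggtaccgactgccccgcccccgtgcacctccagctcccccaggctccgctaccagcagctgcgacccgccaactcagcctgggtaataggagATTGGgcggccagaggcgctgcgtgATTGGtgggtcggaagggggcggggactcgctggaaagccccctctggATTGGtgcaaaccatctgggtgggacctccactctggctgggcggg
ATR: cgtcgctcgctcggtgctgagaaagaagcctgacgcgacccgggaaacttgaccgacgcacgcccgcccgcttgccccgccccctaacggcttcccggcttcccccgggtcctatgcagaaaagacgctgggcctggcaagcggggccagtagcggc
These are chr18:22933078-22933314 (plus strand), chr1:202341981-202342186 (minus), chr17:58692323-58692572 (plus), chr1:35769979-35770228 (minus) and chr3:142578827-142578983 (minus) of GRCh38. UBE2T holds TTTGAA at base -153 and CCAAT boxes at -124 and -73, counted back from the start site. CLSPN holds 3 CCAAT boxes, at -119, -94 and -46, in the reverse orientation. The windows of RBBP8, RAD51C and ATR hold none of these 3 motifs. Neither do those of EXO1, FANCE, FANCL and FANCG, which are also among the members with the lowest mean ratios and are not printed. The RefSeq start site used for RBBP8 lies inside its deposited row, downstream of the first base of that row.

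The BRCA1 axis was split. RBBP8 (CtIP), which starts the resection of broken ends together with the MRE11 nuclease, had the lowest mean ratio of all members on the log2(RPKM + 1) scale. With a pseudocount of 0.1 or by limma-voom RMI2 was lowest, with log2 changes of -0.59 and -0.62 against -0.47 for RBBP8 under both. RBBP8 lies on chromosome 18 (22798261 to 23026488, plus strand, hg38). RBBP8 was at 20.9 RPKM in siNC (4291 reads), 11.04 in siMYBL2-1 (2351 reads) and 20.7 in siMYBL2-2 (4858 reads). Only siMYBL2-1 stood below the control by more than counting error, at 0.527 times siNC (0.501 to 0.555) against 0.987 times (0.947 to 1.03). The limma log2 change was -0.44 (SE 0.37, adjusted p 0.999), with a siMYBL2 mean of 15.9 ± 6.80 RPKM (SD, n = 2).

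BRCA1, the ubiquitin ligase that directs breaks towards recombination, was at 10.9, 8.35 and 13.5 RPKM, so the control lay between the siMYBL2 libraries. Its binding partner BARD1 was at 1.74, 1.53 and 1.52 RPKM, and of all members it differed least between the siMYBL2 libraries. BRIP1, a helicase that binds BRCA1, was at 4.21, 2.49 and 4.75 RPKM. It was 0.592 times siNC (0.542 to 0.646) in siMYBL2-1 and 1.13 times (1.05 to 1.21) in siMYBL2-2. BRCA2, which acts at resected single strands, was at 1.303, 1.00 and 1.78 RPKM. PALB2, the bridge between BRCA1 and BRCA2, was the member with the highest mean ratio and the one gene of the 39 above siNC in both libraries. PALB2 (chromosome 16, 23603160 to 23641310, minus strand) was at 2.90, 3.03 and 4.47 RPKM, 1.04 times siNC (0.927 to 1.17) and 1.54 times (1.39 to 1.71). Its siMYBL2 mean was 3.75 ± 1.02 RPKM (SD, n = 2), and limma gave a log2 change of 0.27 (SE 0.31, adjusted p 0.999).

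The genes that help strands pair and exchange held the members with the largest and next largest gaps between the siMYBL2 libraries, MND1 and RAD51C, while RAD54L, XRCC2 and XRCC3 differed little. RAD51C (chromosome 17, 58692573 to 58735611, plus strand), which helps repair filaments form on single strands, was at 7.31 RPKM in siNC, 3.89 in siMYBL2-1 and 8.03 in siMYBL2-2. It was 0.531 times siNC (0.491 to 0.575) in the first and 1.10 times (1.03 to 1.17) in the second, a 2.07-fold difference between the siMYBL2 libraries (1.92 to 2.23), and its limma log2 change was -0.32 (SE 0.37, adjusted p 0.999). MND1, which stimulates strand exchange and is best known from meiosis, had the largest gap of all members in log2(RPKM + 1). MND1 (chromosome 4, 153344649 to 153415118, plus strand) was at 21.2, 14.4 and 28.3 RPKM, 0.681 times siNC (0.625 to 0.742) and 1.34 times (1.25 to 1.44). The mean of its siMYBL2 libraries, 21.3 ± 9.80 RPKM (SD, n = 2), lay close to the control, with a limma log2 change of -0.06 (SE 0.38, adjusted p 0.999).

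RAD51AP1, which helps strands pair, was at 8.90, 5.82 and 9.42 RPKM. The motor protein genes RAD54L and RAD54B, which remodel DNA during strand exchange, stood at 2.84, 2.42 and 2.89 RPKM and 5.04, 4.33 and 5.88 RPKM. XRCC2, a gene of the same strand-pairing step, was at 8.65, 9.50 and 8.15 RPKM and thus one of 5 members above siNC in siMYBL2-1. XRCC3, the partner of RAD51C, was at 3.01, 2.96 and 2.62 RPKM. KLC1 overlaps XRCC3, which keeps 23.3% of its exonic bases to itself, FSBP overlaps RAD54B, which keeps 48.7%, and LRRC41 overlaps RAD54L, which keeps 74.9%. KLC1 was at 9.52, 11.4 and 9.86 RPKM, FSBP at 7.32, 6.31 and 8.48 RPKM and LRRC41 at 2.25, 2.41 and 2.03 RPKM, so reads of the shared bases may be split between these genes.

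The Fanconi core complex, the largest role group, had the most genes below siNC in both siMYBL2 libraries. They were 6 of 9 with the conjugating enzyme UBE2T counted (66.7%, against 36.4% of all genes tested). This count was 4 of 9 with median scaling and 5 of 9 after quantile normalization or with the length trend removed, and UBE2T and FANCB were at 0.989 and 0.992 times siNC in siMYBL2-2. The group's medians were -0.34 for siMYBL2-1 and -0.13 for siMYBL2-2. FANCE, the subunit that contacts FANCD2, was at 6.05 RPKM in siNC (622 reads), 3.86 in siMYBL2-1 (412) and 4.75 in siMYBL2-2 (560). The FANCE ratios were 0.638 (0.562 to 0.723) and 0.785 (0.699 to 0.881), both intervals below 1, and the siMYBL2 mean was 4.30 ± 0.630 RPKM (SD, n = 2). By limma its log2 change was -0.42 (SE 0.29, adjusted p 0.999). FANCE lies on chromosome 6 (35452361 to 35467103, plus strand), and no other row covers any of its exonic bases.

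FANCL, the ubiquitin ligase of the complex, was at 10.7, 6.97 and 9.20 RPKM. Its ratios were 0.650 (0.590 to 0.716) and 0.858 (0.787 to 0.937), with a limma log2 change of -0.38 (SE 0.30, adjusted p 0.999). FANCL lies on chromosome 2 (58159243 to 58241372, minus strand), where VRK2 overlaps it and 80.3% of its exonic bases are its own. VRK2 was at 11.4, 8.59 and 10.2 RPKM. UBE2T (chromosome 1, 202331657 to 202341980, minus strand), which passes ubiquitin to FANCL and whose window with a CHR is printed above, was at 29.5, 18.3 and 29.2 RPKM. In UBE2T only siMYBL2-1 was below the control by more than counting error, at 0.621 times siNC (0.568 to 0.678) against 0.989 times (0.916 to 1.07), and limma gave -0.34 (SE 0.34, adjusted p 0.999).

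The scaffold subunit gene FANCG was at 7.67, 5.47 and 6.53 RPKM, FANCF at 1.22, 0.784 and 1.03 RPKM, and FANCB at 2.12, 1.47 and 2.11 RPKM. These 3 genes were below siNC in both siMYBL2 libraries, FANCB and FANCF by less than counting error in siMYBL2-2. FANCC, at 1.52, 1.53 and 1.42 RPKM, and the DNA translocase gene FANCM, at 1.38, 1.28 and 1.56 RPKM, stayed within counting error of siNC in each library. FANCA (chromosome 16, 89737549 to 89816657, minus strand) went the other way. It was at 2.11, 2.66 and 1.85 RPKM, 1.26 times siNC (1.15 to 1.38) in siMYBL2-1 and 0.877 times (0.796 to 0.967) in siMYBL2-2, with a limma log2 change of 0.06 (SE 0.30, adjusted p 0.999). ZNF276, whose exons cover part of FANCA, was at 3.32, 4.27 and 2.42 RPKM and had the same order of libraries, and 76.4% of the FANCA exonic bases belong to FANCA alone.

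The substrates of the core complex, FANCD2 and FANCI, clamp onto DNA as a pair once they carry ubiquitin. FANCD2 was at 14.1, 10.8 and 14.8 RPKM, and FANCI at 22.7, 18.2 and 23.8 RPKM. The order of the libraries was the same for both, with ratios of 0.772 (0.739 to 0.805) and 0.801 (0.774 to 0.829) in siMYBL2-1, and 1.05 (1.01 to 1.10) and 1.05 (1.02 to 1.08) in siMYBL2-2. A pseudogene row named after FANCD2 had at most 10 reads in a library.

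Of the genes that resect ends or take apart joined molecules, EXO1 and RMI2 were below siNC in both siMYBL2 libraries. The nuclease gene EXO1 (chromosome 1, 241847967 to 241895148, plus strand) was at 7.94 RPKM in siNC (1323 reads), 4.75 in siMYBL2-1 (822) and 6.76 in siMYBL2-2 (1293). Its ratios were 0.598 (0.548 to 0.653) and 0.852 (0.789 to 0.921), and limma gave -0.42 (SE 0.31, adjusted p 0.999) for a siMYBL2 mean of 5.76 ± 1.43 RPKM (SD, n = 2). RMI2, a subunit of the BLM dissolvasome, lies on chromosome 16 (11249619 to 11351762, plus strand). RMI2 had the lowest ratio of any member in siMYBL2-1, 0.470 (0.370 to 0.595), on 221 reads in siNC and 108 in siMYBL2-1. Its levels were 2.03, 0.956 and 1.80 RPKM, with 0.884 times siNC (0.731 to 1.07) in siMYBL2-2 and a limma log2 change of -0.37 (SE 0.31, adjusted p 0.999).

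BLM, the helicase of the dissolvasome, was at 5.36, 3.46 and 6.67 RPKM, and its cofactor RMI1 at 4.83, 4.002 and 5.68 RPKM. EME1, the partner of the MUS81 nuclease that cuts branched DNA, was at 11.7, 8.53 and 15.6 RPKM. These 3 genes lay below siNC in siMYBL2-1 and above it in siMYBL2-2, each by more than counting error. MUS81 itself was at 3.33, 3.60 and 2.99 RPKM, the opposite order. The EME1 row shares exonic bases with LRRC59 and that of MUS81 with CFL1, so that 83.6% and 85.9% of their bases are their own. LRRC59 was at 107, 184 and 126 RPKM and CFL1 at 46.2, 61.5 and 50.0 RPKM. Among the break sensors, RAD50 was at 13.8, 12.7 and 14.5 RPKM and NBN at 11.7, 9.38 and 12.1 RPKM, both lowest in siMYBL2-1.

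All 6 checkpoint kinases and adaptors were below siNC in siMYBL2-1, as were 34 of the 39 members and 54.7% of all genes tested. Of the 6, CLSPN, CHEK2 and ATM were below it in siMYBL2-2 as well. These 3 are 50% of the group, against 36.4% of all genes tested below siNC in both libraries. CLSPN (claspin), the adaptor through which ATR activates CHEK1, was at 61.8 RPKM in siNC (13473 reads), 46.6 in siMYBL2-1 (10540) and 53.4 in siMYBL2-2 (13338). With this depth its ratios had the narrowest intervals of the members, 0.753 (0.734 to 0.773) and 0.863 (0.843 to 0.884). ATM, the kinase that answers double-strand breaks, was at 1.32, 0.732 and 1.22 RPKM, 0.553 times siNC (0.502 to 0.608) and 0.918 times (0.847 to 0.995). Its effector CHEK2 was at 2.76, 1.80 and 2.47 RPKM, and in siMYBL2-2 it was within counting error of siNC, at 0.895 times (0.785 to 1.02).

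The kinase genes of the replication branch had another order. ATR (chromosome 3, 142449235 to 142578826, minus strand), which answers stalled forks, was at 1.58, 1.48 and 1.99 RPKM. Its ratio was 0.935 (0.846 to 1.03) in siMYBL2-1 and 1.26 (1.15 to 1.38) in siMYBL2-2, with a limma log2 change of 0.08 (SE 0.29, adjusted p 0.999). An RP11 row overlaps ATR, and 83.6% of the exonic bases of ATR are its own. Its effector CHEK1 was at 7.06, 6.29 and 7.96 RPKM, and TOPBP1, which activates ATR, at 13.5, 9.91 and 15.1 RPKM. POLQ, the polymerase of a mutagenic end joining route that competes with recombination, was at 4.12, 2.77 and 4.37 RPKM, 0.671 times siNC (0.620 to 0.725) and 1.06 times (0.991 to 1.13).

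**Figure D3:**
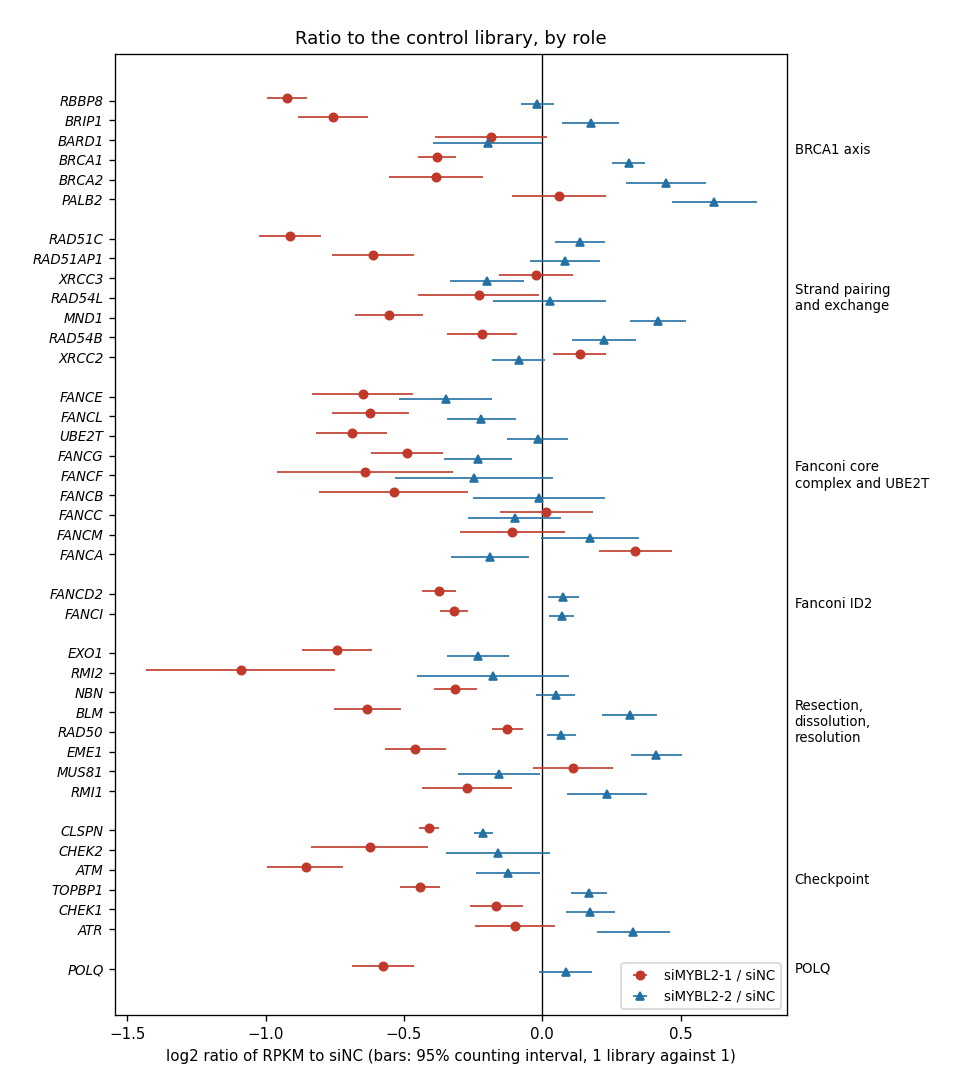
Log2 ratio of RPKM to siNC for each of the 39 genes, by role, in siMYBL2-1 (circles) and siMYBL2-2 (triangles), with 95% counting intervals of 1 library against 1. Most circles lie left of 0, and 24 genes have their symbols on opposite sides of 0. The core complex, the largest group (9 genes), holds 6 of the 14 genes with both symbols left of 0.

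Another 63 genes of the same pathways were listed, of which 53 were tested. Of these 46 were below siNC in siMYBL2-1 and 25 in siMYBL2-2, 24 in both, with medians of -0.22 and 0.01. None passed limma (smallest adjusted p 0.945). At an unadjusted limma p under 0.05 there was 1 (1.89%, against 4.71% of all genes tested), ERCC1, which was higher. MRE11, the nuclease that works with RAD50 and NBN, chosen with its values in view, stood at 25.9, 15.6 and 22.3 RPKM.

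The lowest of the 53 by mean ratio of log2(RPKM + 1) were ETAA1, an activator of ATR, at 11.6, 4.79 and 10.2 RPKM, SEM1, a small protein that binds BRCA2, at 46.2, 24.6 and 35.1 RPKM, the fork protein gene TIMELESS at 35.8, 16.8 and 35.2 RPKM, and H2AX, the histone that is phosphorylated at breaks, at 24.6, 18.6 and 15.6 RPKM. TIMELESS in siMYBL2-2 was near the control, as RBBP8 was, while ETAA1 was at 0.876 times siNC there (0.817 to 0.938). The highest were ERCC1, a nuclease subunit of crosslink unhooking, at 26.5, 40.8 and 51.7 RPKM, ABRAXAS1, a scaffold of a BRCA1 complex, at 6.30, 7.91 and 11.5 RPKM, the topoisomerase gene TOP3A at 2.10, 2.88 and 2.64 RPKM, and the ubiquitin ligase gene RNF8 at 14.8, 18.3 and 17.6 RPKM. ERCC1 (log2 change 0.77, SE 0.30, limma adjusted p 0.945) is overlapped by CD3EAP and keeps 71.4% of its exonic bases to itself, and ABRAXAS1, overlapped by MRPS18C, keeps 74.8%.

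Other repair pathways and the cell cycle lists give the setting of these values. The 13 tested genes of non-homologous end joining, which ligates ends without a template, had medians of -0.16 in siMYBL2-1 and 0.15 in siMYBL2-2. XRCC6, a subunit of the Ku ring, was its lowest at 120, 81.1 and 121 RPKM, and XRCC4 its highest at 3.04, 3.40 and 5.74 RPKM. The 7 mismatch repair genes had medians of -0.37 and -0.02. MSH6 was at 31.3, 20.0 and 25.4 RPKM and MLH3 at 2.10, 2.46 and 2.59 RPKM. FBXO11 overlaps MSH6, which keeps 83.8% of its exonic bases to itself. Over 17 genes of nucleotide excision repair the medians were -0.09 and -0.07, with DDB2 at 4.05, 1.87 and 2.79 RPKM and RAD23B at 62.3, 94.5 and 76.8 RPKM. Below siNC in both siMYBL2 libraries were 1 of 13 end joining genes (7.69%), 5 of 7 mismatch repair genes (71.4%) and 9 of 17 excision repair genes (52.9%). Over all genes tested the share was 36.4%. Whether any of these lists differs from the recombination genes was not tested.

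The 12 tested p53 target genes report on the outcome of checkpoint signalling. Below siNC in both siMYBL2 libraries were 6 (50%, against 36.4% of all genes tested), and above it in both 2 (16.7%, against 29.7%). The medians of the list were -0.18 and -0.11. TP53INP1 was at 1.56, 0.742 and 0.870 RPKM and GADD45A at 23.6, 59.6 and 24.5 RPKM. The S phase list, 20 genes of replication, was below siNC in both libraries for 17 (85%, against the same 36.4%), with medians of -0.39 and -0.21. MCM6, a subunit of the helicase that opens DNA for replication, had levels of 22.4, 9.66 and 16.2 RPKM and the replication factor gene GINS2 of 2.15, 1.79 and 2.51 RPKM. Of 19 G2 and M phase genes 13 were below siNC in both (68.4%), with medians of -0.68 and -0.23. TOP2A was at 204, 77.6 and 115 RPKM and PLK1 at 8.80, 10.6 and 12.8 RPKM. Other rows overlap PLK1, which keeps 87.1% of its exonic bases to itself. The summed level of the S phase list was 620, 448 and 533 RPKM and that of the G2 and M list 1047, 569 and 804 RPKM. The part that the share of cells in these phases has in the levels of the recombination genes was not tested. None of the genes of these 6 lists passed limma (smallest adjusted p 0.629). At an unadjusted limma p under 0.05 there was 1 S phase gene (5%) and there were 6 G2 and M genes (31.6%). The other lists had 0, and the share over all genes tested was 4.71%.

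**Figure D4:**
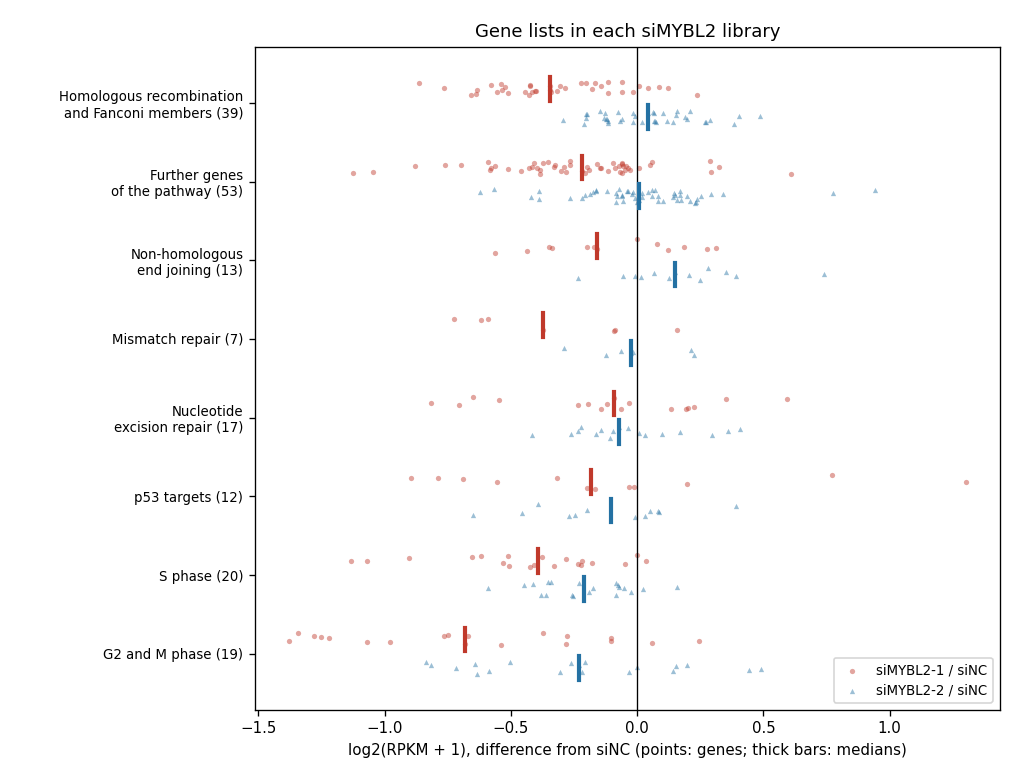
Difference from siNC in log2(RPKM + 1) (x axis) for each tested gene of 8 lists (rows, number of genes in brackets), with circles for siMYBL2-1, triangles for siMYBL2-2 and thick bars for the medians. The members have medians of -0.34 and 0.04, and the S phase and G2 and M lists have both medians below 0.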

How the data were processed

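Poly(A) RNA-seq libraries of 5637 cells were compared, 1 with siNC and 2 with siMYBL2. The authors deposited 1 table of RPKM with the exon intervals and exonic length of each row. Per the submitters' processing notes, cutadapt 1.9, HISAT2 2.0.4, StringTie 1.3.4d and hg38 were used, with no role given. Which program counted reads, whether it used strand, and which annotation it read: not given in the sources used here. Members under 90% free of other rows' exons are therefore given with that share. RPKM times length was a whole multiple of 1 step for 100% of values in each library (tolerance 0.001 reads), which gave the reads. At these depths 3 reads per kilobase are 0.0650 to 0.0745 RPKM.

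Tests ran in limma 3.58.1 under R 4.3.3, with the trend option, on log2(RPKM + 1), which understates changes of low genes, for all genes whose mean reached 1 RPKM. Benjamini-Hochberg adjustment ran over all 13274 genes. The fit has 1 residual degree of freedom (10.2 in total after moderation), and siNC is taken to vary as the siMYBL2 pair does. Symbols that the table holds under an older name were matched through RefSeq names and positions. Statistics in full are given for the 6 members with the lowest and the 3 with the highest mean ratio, the 3 with the largest gap between siMYBL2 libraries, and, as levels, for the 4 lowest and 4 highest further pathway genes and 1 of each per other list. The members and lists were chosen with earlier results of these data known. Alternatives were other pseudocounts, filters, scalings, a length correction, robust moderation, limma-voom and leaving out a library. Further pathway genes outside the rule enter only the counts and medians, except MRE11.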

Additional observations from a re-analysis of the deposited data

How the results depend on the processing

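The number of genes called among all genes tested was 1 in the main test, 10 by limma-voom, and 0 without the filter, with the filter at 5 RPKM, with median scaling, with quantile normalization, with the length trend removed and with robust moderation. The number of members called was 0 under all of these and with a pseudocount of 0.1. With the filter at 5 RPKM, which keeps 20 members, 6 were lower and 0 higher in both siMYBL2 libraries. Members lower in both numbered 10 with median scaling, 11 after quantile normalization and 12 with the length trend removed, against 14. Members higher in both numbered 4 after quantile normalization and 2 with the length trend removed, against 1. Over the settings run, the members' median log2 ratio ran from -0.41 to -0.30 in siMYBL2-1 and from 0.04 to 0.07 in siMYBL2-2. The median mean log2 change was -0.34 without siMYBL2-2 and 0.04 without siMYBL2-1, so its sign rests on siMYBL2-1. Members with at least 90% of exonic bases of their own, a choice made after the data had been seen, numbered 31, of which 12 were lower in both and 28 lower in siMYBL2-1.

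Without siMYBL2-1, 19 of 60 named genes changed the sign of their log2 change, among them RAD51C (to 0.12), BRIP1 (to 0.14) and BLM (to 0.27), and without siMYBL2-2 7 did. Of 455 refits of these genes under the other settings, with all libraries kept, 18 changed sign, in 7 genes. With median scaling these were BRCA1 (0.003254), FANCC (0.005327), RMI1 (0.01849), EME1 (0.01416), MUS81 (0.01514), RAD50 (0.004201) and GINS2 (0.0199). With the length trend removed they were BRCA1 (0.003171), FANCC (0.006211), RMI1 (0.009717), EME1 (0.005952), MUS81 (0.005149), RAD50 (0.006418) and GINS2 (0.01181), and after quantile normalization FANCC (0.04611), RMI1 (0.02131), MUS81 (0.0299) and GINS2 (0.05079). The cause was not tested. Among the 60 named genes, the 1 call gained was MYBL2 by limma-voom (adjusted p 0.00811). For low members depth limits the ratios, as for RMI2, with 108 reads in siMYBL2-1. No paired analysis was possible because siNC has a single library.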
